A study of Mus musculus with 16 samples.

Results

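Brown fat from Ucp1-knockout mice (Ucp1-/-, KO) was compared with that of wild-type mice (WT) after isoproterenol, using the 4 KO and 4 WT isoproterenol libraries, 8 of the 16 in the series. The libraries were chosen by their genotype and treatment labels. All 8 came from the interscapular brown fat of mice of the C57BL/6J strain, and all mice had received isoproterenol, an agonist of beta-adrenergic receptors, from an Alzet minipump at 60 mg per kg per day for 3 days. The other 8 libraries, 4 WT and 4 KO, were from mice whose pumps delivered saline, and they serve here as the background. The age and sex of the mice and the part of Ucp1 that was deleted are not stated in the labels. Whether each library is a different animal is not stated either, so a p-value reflects how far these samples spread, and that spread may be technical. The question set by the design is how brown fat without UCP1 differs from brown fat with it when both are driven by a beta-adrenergic agonist, and the series title points to BMP3b, the product of Gdf10, as a factor released by this tissue.

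Brown adipocytes burn fatty acids and glucose in densely packed mitochondria, and UCP1 lets protons return across the inner membrane without making ATP, so that the energy appears as heat. Beta-adrenergic receptors raise cyclic AMP, which starts lipolysis and, over days, the transcription of Ucp1 and other thermogenic genes. In mice that lack UCP1, other heat-producing cycles such as creatine and calcium cycling have been described in fat, and brown fat mitochondria of such mice are known to be sensitive to calcium and oxidative damage.

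Levels are given in counts per 1e6 reads (CPM), in the order of replicates 1 to 4, written WT 1 to WT 4 and KO 1 to KO 4. A difference is KO minus WT in log2 CPM, with its standard error (SE) and an adjusted p from limma over the 15350 genes with a value. A gene was called, and is said to have risen or fallen, at an adjusted p under 0.05, and a call is said to be kept where it held with each of the 8 libraries left out in turn. Libraries held 11093784 to 16720338 reads in WT and 12914590 to 20986735 in KO, and 3 reads, the floor used here, were worth 0.143 to 0.282 CPM. Counts compare a gene between libraries, not 1 gene with another, since they are not scaled to gene length.

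The KO libraries differed among themselves more than the WT libraries did. On the first principal component of the 8 libraries, which held 62.5% of the variance, WT lay between -86.7 and -48.4 and KO 1 to KO 4 at 145, 59.3, 63.6 and 9.59. Correlations of log2 CPM ran from 0.958 to 0.985 between WT libraries, from 0.852 to 0.957 between KO libraries and from 0.754 to 0.941 across genotypes. KO 1 stood apart from the other KO libraries, and KO 4 lay nearest to WT. Without KO 1 the number of called genes was 4935, and without KO 4 it was 6070, against 4639 with all 8 libraries.

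Ucp1 (ENSMUSG00000031710, chromosome 8), the targeted gene, held 8905, 11662, 17655 and 18458 CPM in WT 1 to 4 and 19.0, 268, 848 and 2129 CPM in KO 1 to 4. Every KO level was below every WT level, and the KO levels were spread widely, lowest in KO 1 and highest in KO 4. The difference was -5.45 on the log2 scale (SE 1.28, adjusted p = 0.0155), and an exact two-sided permutation test gave p = 0.0286, the smallest that 4 against 4 libraries allow (adjusted p = 0.0571 over 2 genes). With voom weights on the recovered reads the gene was not called (-5.41, adjusted p = 0.0863). Since the deleted part of the gene is not given, reads from the rest of it can remain in KO, and these levels check nothing about the genotype. Under saline Ucp1 held 3076 ± 527 CPM in WT saline and 818 ± 376 CPM in KO saline (SD, n = 4), and the genotype difference was not shown to differ between isoproterenol and saline, with a difference of differences of -3.43 (adjusted p = 0.0826).

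Gdf10 (ENSMUSG00000021943, chromosome 14), which encodes the secreted factor BMP3b, held 34.8, 23.2, 23.1 and 29.4 CPM in WT 1 to 4 and 25.8, 7.197, 12.8 and 4.74 CPM in KO 1 to 4. KO 1 lay among the WT libraries, while KO 2, KO 3 and KO 4 lay below all of them. The difference was -1.4 on the log2 scale (SE 0.47, adjusted p = 0.0518) and did not pass the threshold, and the exact permutation test gave p = 0.0857. Without KO 1 it was called (-1.85, adjusted p = 0.00394), as it was with the spread estimated from all 16 libraries (-1.40, adjusted p = 0.00974). Saline levels were 12.2 ± 4.25 CPM in WT saline and 10.6 ± 1.63 CPM in KO saline (SD, n = 4). The plot of selected genes by library shows both genes beside those described in the following paragraphs.

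**Figure D1:**
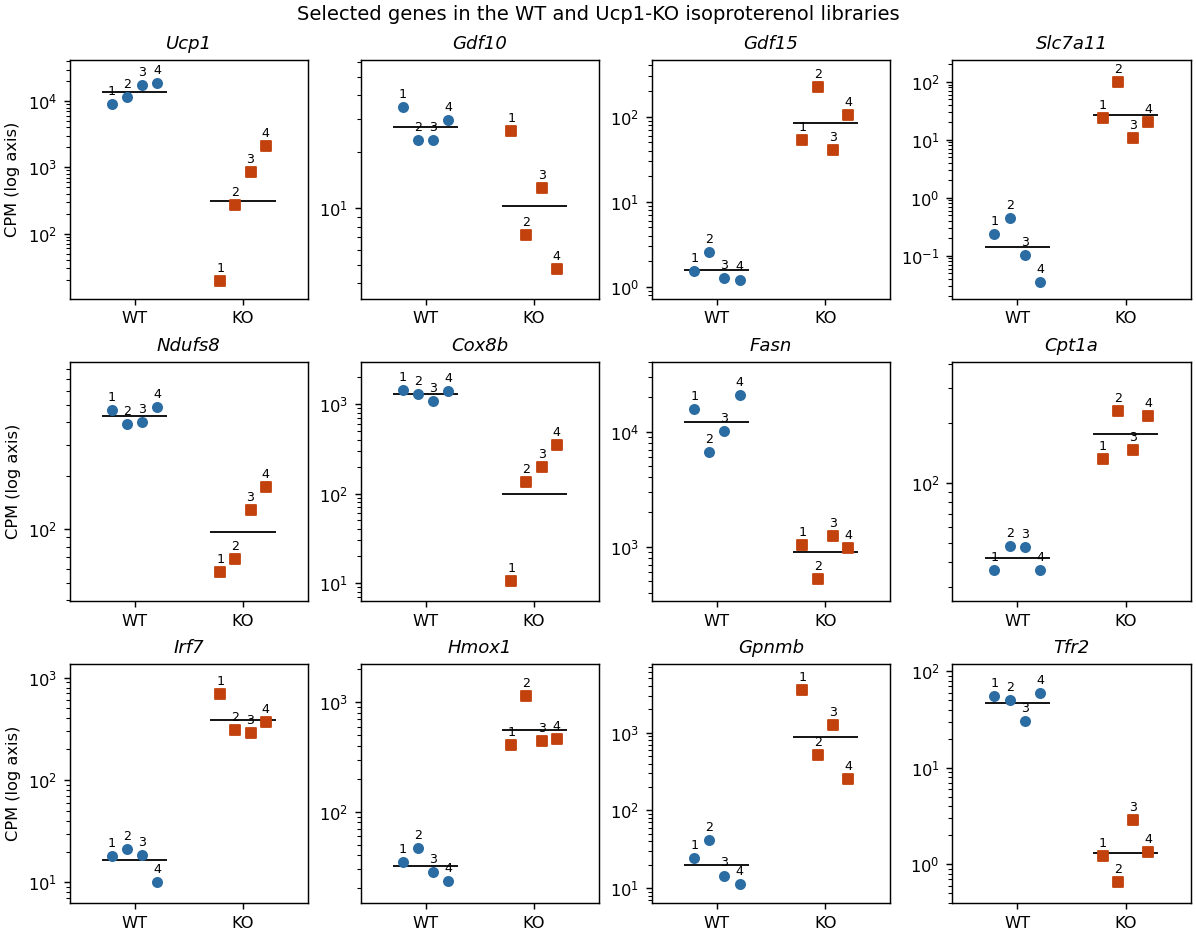
CPM on a log axis of 12 genes in the 4 WT (circles) and 4 KO (squares) isoproterenol libraries, numbered by replicate, with a bar at the geometric mean of each group. All groups are apart except for Gdf10, where KO 1 at 25.8 CPM lies among the WT libraries.

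Across all genes, 4639 of 15350 were called, which is 30.2%. Of these, 2181 genes (14.2% of all) rose and 2458 (16%) fell, with 1375 of the former and 1665 of the latter changed 2-fold or more. In 2638 genes (17.2%) all 4 KO levels were above all 4 WT levels, and in 2809 (18.3%) all were below. Calls were kept without any 1 of the 8 libraries for 2234 genes, 1010 higher and 1224 lower. The split depended on the scaling of the libraries: 47.0% of calls were higher as deposited and 65.7% (3289 of 5003) when CPM were scaled to library totals, where the median difference of all genes was 0.27 instead of 0.016. The number called was 2698 without WT 1, 2566 without WT 3 and 2411 without WT 4.

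Under saline the same genotype comparison called 50 genes (0.326%), 29 higher and 21 lower, with 1960 genes at an unadjusted p under 0.05. The saline count moved between 8 and 307 with 1 library left out, and the 307 came without the saline library titled KO replicate 2. That library is 1 of 3 in the KO saline group whose title and column header give different replicate numbers. Titles were followed here. The genotype difference under isoproterenol differed from that under saline in 3787 genes (24.7%), 1674 in the positive and 2113 in the negative direction. Both the isoproterenol difference and this difference of differences were called in 3233 genes. The difference of differences was tested with 1 spread shared by all 16 libraries, although the KO isoproterenol libraries varied more than the WT ones. With that shared spread the isoproterenol difference itself was called in 6853 genes, against 4639 with the 8 libraries alone. Of the 50 genes called under saline, 17 were also called under isoproterenol, where 30.2% of all genes were called. Gene lists and their members were chosen with earlier results of these data known. A list's count beside the share of all genes is therefore a description and no test. The plot of all genes places the groups described below.

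**Figure D2:**
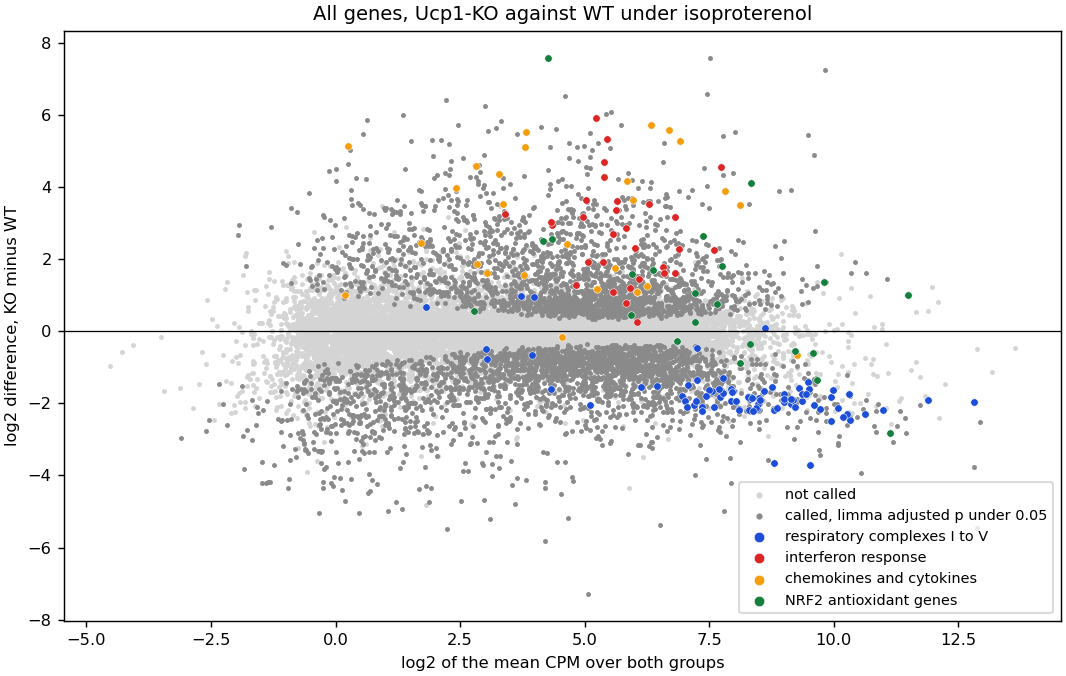
Difference between KO and WT under isoproterenol (log2) against mean CPM (log2) for all 15350 genes, 1 point per gene, with called genes in dark grey and 4 gene groups in colour. Respiratory complex genes sit mostly near -2 at high CPM, while interferon genes and most chemokine genes lie above 0.

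Genes of the respiratory chain fell together in KO. These nuclear genes encode the complexes that move electrons from NADH and succinate to oxygen, and the ATP synthase driven by the resulting proton gradient. Of 81 measured genes of complexes I to IV and ATP synthase, 73 fell, none rose, and in 74 every KO level was below every WT level, against 16% and 18.3% of all genes. Their median difference was -1.88 (all genes 0.016), and under saline it was 0.066 with none of the 81 called. In 73 of them the genotype difference also differed between isoproterenol and saline, against 24.7% of all genes and 3233 of the 4639 genes called under isoproterenol. The isoproterenol libraries enter both tests, so this count is no separate support. No mitochondrially encoded subunit was among the genes listed.

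All 37 measured subunits of complex I, the entry point for NADH, fell, by a median of -1.93 and over a narrow range from -2.22 to -1.29, and 25 calls were kept. Ndufs8, an iron-sulfur subunit, held 472, 393, 403 and 491 CPM in WT 1 to 4 and 57.2, 68.3, 128 and 173 CPM in KO 1 to 4. KO 4 had the highest of the KO levels and still less than any WT library, and the difference was -2.18 on the log2 scale (SE 0.34, adjusted p = 0.00434). Ndufv2 (in the NADH-oxidising module) held 690.5, 651, 681 and 810.3 CPM in WT 1 to 4 and 74.5, 105, 225 and 342 CPM in KO 1 to 4 and fell by 2.17 on the log2 scale. Ndufc1 fell by 2.22. The core subunits Ndufs1 and Ndufv1 fell by 1.97 and 2.05, with calls lost without WT 1, WT 3, WT 4 or KO 2 for Ndufs1 and without WT 1, WT 2, WT 3, WT 4, KO 2 or KO 3 for Ndufv1.

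All 4 subunits of complex II, succinate dehydrogenase, and all 9 measured subunits of complex III fell, with medians of -2.16 and -2.12. Sdhb held 1645, 1447, 1510.3 and 1922 CPM in WT 1 to 4 and 119, 245, 375 and 644 CPM in KO 1 to 4, a difference of -2.48 on the log2 scale (SE 0.48, adjusted p = 0.00792). Cyc1, the cytochrome c1 of complex III, held 2066, 1836, 1982 and 2403 CPM in WT 1 to 4 and 114, 299.7, 559.6 and 1051 CPM in KO 1 to 4, a difference of -2.45 (adjusted p = 0.0192), and its call was lost without WT 1, WT 3, WT 4 or KO 2. Calls were kept for 1 of the complex II and 2 of the complex III genes. The number of complex II genes called was 1 without WT 3 or WT 4 and 2 without WT 1 or KO 2, and that of complex III genes 2 without WT 1 or WT 4, 3 without WT 3 and 4 without KO 2.

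In complex IV, cytochrome c oxidase, 13 of 15 genes fell, and 4 kept the call. The largest differences of any respiratory gene were those of Cox8b and Cox7a1, the isoforms of heart, muscle and brown fat. Cox8b held 1439, 1309, 1079 and 1385 CPM in WT 1 to 4 and 10.5, 134, 199 and 349 CPM in KO 1 to 4, with KO 1 far below the rest, and its difference was -3.70 on the log2 scale (SE 0.95, adjusted p = 0.0209). Cox7a1 held 803, 728, 730.3 and 887 CPM in WT 1 to 4 and 8.02, 65.3, 124 and 233 CPM in KO 1 to 4, a difference of -3.65 on the log2 scale (SE 0.89, adjusted p = 0.0178). Both were no longer called with voom weights, nor Cox8b without WT 1, WT 3 or WT 4 and Cox7a1 without WT 4. Cox5a, with 403, 319.6, 359 and 422 CPM in WT 1 to 4 and 39.7, 86.2, 137 and 195 CPM in KO 1 to 4, kept its call at -1.94 (adjusted p = 0.0137). The number of complex IV genes called was 4 without WT 4, 5 without WT 1 or WT 3, 6 without WT 2 and 8 without KO 2.

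ATP synthase was less uniform, with 10 of 16 genes lower and none higher, although 2 were called higher without KO 4, 1 with all 16 libraries in the fit and 1 with library totals. Atp5k held 600.5, 586, 436 and 509 CPM in WT 1 to 4 and 59.01, 80.3, 167 and 211 CPM in KO 1 to 4 and fell by 2.22, and Atp5o and Atp5j2 fell by 1.93 and 2.10, all with calls kept. Atpif1, the inhibitor that stops the synthase from running backwards and burning ATP, held 12.7, 9.33, 6.52 and 6.34 CPM in WT 1 to 4 and 25.6, 12.4, 22.2 and 10.4 CPM in KO 1 to 4. Its levels overlapped between genotypes, with KO 1 and KO 3 above every WT library, and it was not called (0.98, adjusted p = 0.0637). The number of ATP synthase genes called lower was 6 without WT 1, WT 4 or KO 2.

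In bulk tissue, fewer brown adipocytes and less RNA per adipocyte cannot be told apart, so adipocyte markers are set beside these genes. The score of a list in a library is the mean log2 CPM of its members minus their WT mean. Complex I scores were -2.98, -2.22, -1.47 and -0.82 in KO 1 to KO 4, and scores of 14 adipocyte markers shared by white and brown fat were -2.13, -1.22, -0.067 and 0.067. In each KO library the complex I score was below the adipocyte score, and in KO 3 and KO 4 the adipocyte score lay within 0.1 of the WT mean. WT scores ran from -0.12 to 0.081 for complex I and from -0.02 to 0.035 for the adipocyte markers. In KO 1 and KO 2 both scores were low. The part of adipocyte content in the respiratory difference was not tested in any library.

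Among the adipocyte markers themselves, 1 of 14 fell, where 16% of all genes did, with a median of -0.85 (-0.34 without KO 1), and their summed level was 24826 to 26609 CPM in WT and 4809 to 40943 CPM in KO. None was at 0 in any of these libraries. The gene that fell was Cebpa, a transcription factor of fat cell differentiation, with 913, 703, 873 and 856 CPM in WT 1 to 4 and 219, 197, 284 and 288 CPM in KO 1 to 4 and a difference of -1.77 on the log2 scale (SE 0.22, adjusted p = 0.00213). Its 4 KO levels lay close together, unlike those of Fabp4, the fatty acid binding protein of fat cells, at 12782, 14732, 11703 and 12586 CPM in WT 1 to 4 and 2577, 8733, 12639 and 26476 CPM in KO 1 to 4. In Fabp4, KO 4 was above every WT library and KO 1 and KO 2 below, with a difference of -0.47 (adjusted p = 0.666). Plin1, the perilipin of the adipocyte droplet, was likewise spread, at 1440.2, 1258, 1664 and 1759 CPM in WT 1 to 4 and 198, 491, 1238 and 1923 CPM in KO 1 to 4, -1.13 (adjusted p = 0.214). Without KO 4, 5 adipocyte markers were called lower, and without KO 3, 2.

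Of 13 brown adipocyte markers, 3 fell (Ucp1, Cox8b and Cox7a1), where 16% of all genes did, and the median was -1.49 (-0.54 without KO 1). The summed level was 16618 to 29972 CPM in WT and 210.2 to 14502 CPM in KO. Brown marker scores were -4.57, -1.57, -1.08 and -0.091 in KO 1 to KO 4, so KO 4 lay inside the WT range of -0.31 to 0.31. Cidea, a lipid droplet protein typical of brown fat, held 2820.3, 3049, 3198 and 4010.3 CPM in WT 1 to 4 and 30.2, 774, 1295 and 2999.5 CPM in KO 1 to 4. KO 1 was far below the other KO libraries, KO 4 lay within the WT levels, and the gene was not called (-2.56, adjusted p = 0.144). The number called was 1 without WT 4, 5 without KO 1 and 8 without KO 4.

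Enzymes that feed the chain were lower as well. In the tricarboxylic acid cycle, with pyruvate dehydrogenase, 13 of 18 genes fell (median -2.21), against 16% of all genes, and 4 calls were kept. Suclg1, of succinyl-CoA ligase, held 1894, 1631, 1742 and 2203 CPM in WT 1 to 4 and 64.0, 164, 303 and 669 CPM in KO 1 to 4, a difference of -3.11 on the log2 scale (SE 0.63, adjusted p = 0.00958). Idh2, the mitochondrial NADP-dependent isocitrate dehydrogenase, held 642, 547, 556 and 596 CPM in WT 1 to 4 and 77.8, 78.0, 163 and 251 CPM in KO 1 to 4, and Pdhb fell from 1445, 1161, 1554 and 1827 CPM to 90.0, 224, 352 and 657 CPM. Cs, citrate synthase, whose activity is a common measure of mitochondrial content, was not called: it held 3490.5, 2829, 4143 and 4447 CPM in WT 1 to 4 and 277, 795, 1313 and 2905 CPM in KO 1 to 4, with KO 4 inside the WT range (-1.94, adjusted p = 0.0545). The number of genes called was 4 without WT 3 or WT 4, 5 without WT 1 or KO 2 and 7 without WT 2.

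Breakdown of branched-chain amino acids, a fuel that brown fat takes up on activation, was lower in 16 of 19 genes, against 16% of all genes. The median was -1.86, and 6 calls were kept. Hibch, in valine breakdown, held 433, 405, 600.2 and 637 CPM in WT 1 to 4 and 32.6, 55.1, 132 and 248 CPM in KO 1 to 4, and Pcca, of propionyl-CoA carboxylase, held 354, 303, 434 and 544 CPM in WT 1 to 4 and 33.3, 38.3, 114 and 188 CPM in KO 1 to 4. Their differences were -2.54 (adjusted p = 0.0138) and -2.47 (adjusted p = 0.0124), with all KO levels below all WT levels. Bcat2, the mitochondrial aminotransferase that starts the pathway, fell by 0.96 and lost its call without WT 1, WT 2, WT 4 or KO 2. The number of genes called was 6 without WT 4, 7 without WT 3 or KO 2 and 8 without WT 1.

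Fatty acid oxidation had 13 of 28 genes lower and 1 higher, against 16% and 14.2% of all genes, with a median of -2.20 (-1.35 without KO 1). The gene that rose was Cpt1a, the liver form of the carnitine palmitoyltransferase that admits fatty acids to mitochondria, at 36.3, 48.3, 47.7 and 36.5 CPM in WT 1 to 4 and 132, 232, 147 and 218 CPM in KO 1 to 4. All KO levels were above all WT levels, by 2.08 on the log2 scale (SE 0.22, adjusted p = 0.00135). Cpt1b, the muscle and brown fat form of the same enzyme, held 21.8, 25.2, 18.0 and 19.7 CPM in WT 1 to 4 and 0.595, 7.197, 9.59 and 29.1 CPM in KO 1 to 4: KO 1 was low, KO 4 was above every WT library, and the gene was not called (-1.84, adjusted p = 0.188). Acadm, the medium-chain acyl-CoA dehydrogenase, held 4130.5, 3957, 4525 and 5269.7 CPM in WT 1 to 4 and 139.7, 330.5, 1278 and 2663 CPM in KO 1 to 4, a difference of -2.82 (adjusted p = 0.0352) that was lost without WT 1, WT 2, WT 3, WT 4 or KO 2. The count of lower genes depended on the libraries and the fit: it was 3 without WT 1 or WT 4, 4 without WT 2, WT 3 or KO 2 and 23 without KO 4, 4 with voom weights and 22 with the spread estimated from all 16 libraries.

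Fatty acid and triglyceride synthesis fell in 13 of 24 genes (median -1.93) and rose in none, against 16% and 14.2% of all genes. Thrsp, a nuclear protein that marks lipogenic tissue, held 3322, 1878, 2132 and 3875 CPM in WT 1 to 4 and 129.9, 118, 188 and 339 CPM in KO 1 to 4. Fasn, fatty acid synthase, held 15722, 6711, 10170.0 and 20894 CPM in WT 1 to 4 and 1033, 529.7, 1237 and 969.9 CPM in KO 1 to 4, and Acly, which makes its cytosolic acetyl-CoA, held 1808, 844, 1490.4 and 3700.4 CPM in WT 1 to 4 and 262, 248, 220.2 and 181 CPM in KO 1 to 4. The groups did not overlap in any of these 3 genes. The differences were -3.92 on the log2 scale (SE 0.40, adjusted p = 0.00132) for Thrsp, -3.76 (adjusted p = 0.00272) for Fasn and -2.92 (adjusted p = 0.00337) for Acly, all kept. Pnpla3, another target of the lipogenic factors ChREBP and SREBP1c, held 163, 84.2, 137 and 175 CPM in WT 1 to 4 and 19.0, 7.38, 31.7 and 11.2 CPM in KO 1 to 4 and fell by 3.18. Elovl3, an elongase of brown fat, and Pck1, for glycerol synthesis, were lowest in KO 1 and highest of all libraries in KO 4, and were not called, at -1.49 and -1.79. The number of genes called was 6 without WT 3, 7 without WT 4 and 8 without WT 1.

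Glucose transporters differed by isoform. Slc2a4, the insulin-regulated transporter GLUT4, held 558, 413, 708 and 755 CPM in WT 1 to 4 and 38.7, 54.3, 174 and 179.7 CPM in KO 1 to 4, while Slc2a1, the ubiquitous transporter GLUT1, held 10.1, 11.5, 9.07 and 9.70 CPM in WT 1 to 4 and 43.8, 86.5, 38.6 and 47.4 CPM in KO 1 to 4. The groups did not overlap for either, with differences of -2.72 on the log2 scale (SE 0.52, adjusted p = 0.00792) for Slc2a4 and 2.35 on the log2 scale (SE 0.25, adjusted p = 0.00135) for Slc2a1. Ldha, of lactate dehydrogenase, fell by 2.02 from 2893, 2594, 2815 and 3771 to 579, 647, 919 and 865 CPM, and Pfkm, the muscle phosphofructokinase, by 2.01. Hk3, a hexokinase of myeloid cells, held 6.82, 7.62, 5.28 and 4.24 CPM in WT 1 to 4 and 312, 52.8, 84.9 and 22.9 CPM in KO 1 to 4, a difference of 3.69 (adjusted p = 0.00712), beside the macrophage markers given further on. In all, 9 of 23 genes fell and 3 rose, beside 16% and 14.2% of all genes. The number of lower genes was 4 without WT 1, WT 3 or WT 4 and 5 without KO 3.

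Few genes of lipid droplets and lipid uptake were called, beside 30.2% of all genes. Of 19 genes of lipolysis and droplets, Hilpda and Plin2 rose and Plin3 fell, and without KO 4 the number of lower genes was 8. Hilpda, an inhibitor of the lipase ATGL, held 5.88, 6.07, 4.93 and 6.06 CPM in WT 1 to 4 and 14.9, 42.5, 34.8 and 38.5 CPM in KO 1 to 4, a difference of 2.41 on the log2 scale (SE 0.32, adjusted p = 0.00274). Plin2, a droplet coat protein, held 777, 940.0, 1115 and 1631 CPM in WT 1 to 4 and 1511, 3845, 2764 and 4595 CPM in KO 1 to 4, with KO 1 below WT 4, and its call (1.45, adjusted p = 0.0374) was lost without WT 1, WT 2, WT 3, WT 4, KO 2 or KO 3. Pnpla2, which encodes ATGL, and Lipe, hormone-sensitive lipase, were not called, at -1.26 and -1.20. Of 16 genes of uptake, Scarb1, a lipoprotein receptor, Got2 and Lrp1 rose by 1.17, 1.12 and 1.20, the call of Lrp1 being lost without WT 1, WT 3, WT 4 or KO 3. Lmf1, needed for lipoprotein lipase to mature, fell by 1.53, while Lpl itself was not called at -1.14. The number of uptake genes called lower was 2 without KO 4.

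Of 27 brown fat regulators and thermogenic genes, 3 fell and 2 rose, smaller shares than the 16% and 14.2% of all genes. Esrra, a nuclear receptor that drives mitochondrial genes, held 313, 268, 336 and 354 CPM in WT 1 to 4 and 49.2, 68.6, 109 and 158 CPM in KO 1 to 4, a difference of -1.86 on the log2 scale (SE 0.34, adjusted p = 0.00670) that was kept. Letmd1, an inner-membrane protein needed for thermogenesis, fell by 3.15, with its call lost without WT 1, WT 3, WT 4 or KO 2. Ppargc1a, the coactivator PGC-1alpha, held 34.1, 51.7, 62.1 and 85.0 CPM in WT 1 to 4 and 3.40, 114, 137 and 341 CPM in KO 1 to 4. KO 1 was lowest of all 8 and the other KO libraries were all above every WT library, which gave a difference of 0.24 with an SE of 1.24. Epsti1 held 3.90, 4.44, 4.45 and 3.82 CPM in WT 1 to 4 and 92.1, 20.1, 37.5 and 8.196 CPM in KO 1 to 4 and rose by 2.73. Its KO levels ranked as the scores of the macrophage markers given further on, which were 3.08, 1.73, 2.69 and 0.75 in KO 1 to KO 4. Which cells expressed Epsti1 was not tested. Zfp516 rose by 0.68, its call lost without WT 1, WT 2, WT 3, WT 4, KO 1, KO 3 or KO 4. Prdm16 and Dio2 were not called, at -0.76 (adjusted p = 0.0589) and -0.90 (adjusted p = 0.453). The number of lower genes was 6 without KO 1 and 14 without KO 4, 14 with the spread estimated from all 16 libraries and 1 with voom weights, and that of higher genes was 1 without WT 1, WT 2, WT 3, WT 4, KO 3 or KO 4 and 4 without KO 1.

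Among 17 genes of the creatine, calcium and similar cycles, 5 fell and 1 rose, beside 16% and 14.2% of all genes. Ckb, the creatine kinase of the futile creatine cycle, held 117, 128, 141 and 312 CPM in WT 1 to 4 and 56.3, 63.0, 85.6 and 52.4 CPM in KO 1 to 4, a difference of -1.34 on the log2 scale (SE 0.32, adjusted p = 0.0162). Slc6a8, the creatine transporter, held 32.7, 29.6, 37.2 and 31.3 CPM in WT 1 to 4 and 141, 80.5, 96.1 and 60.6 CPM in KO 1 to 4 and rose by 1.47, while Gatm and Alpl, for creatine synthesis and phosphocreatine hydrolysis, were not called at 0.50 and 0.029. Pm20d1, whose product makes N-acyl amino acids, held 35.5, 18.8, 27.9 and 44.2 CPM in WT 1 to 4 and 1.07, 3.12, 2.43 and 9.45 CPM in KO 1 to 4, a difference of -3.35 (adjusted p = 0.00628). P2rx5, a purinergic receptor of the brown fat surface, fell by 2.85. The number of lower genes was 3 without WT 4.

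Genes of the adrenergic path had 5 of 27 members lower and 1 higher, where 30.2% of all genes were called. The receptor of adipocytes, Adrb3, held 124, 157, 203 and 168 CPM in WT 1 to 4 and 27.3, 46.4, 267 and 266 CPM in KO 1 to 4, so that KO 1 and KO 2 were low and KO 3 and KO 4 above every WT library (-0.72, adjusted p = 0.473). Adrb1 was not called at -0.59 (adjusted p = 0.487). Pde4a, which degrades cyclic AMP, held 154, 145, 188 and 180.2 CPM in WT 1 to 4 and 25.3, 38.9, 42.9 and 79.1 CPM in KO 1 to 4, a difference of -1.95 on the log2 scale (SE 0.31, adjusted p = 0.00434), the only call of the list that was kept. Prkaca, the catalytic subunit of protein kinase A, and Adcy6, an adenylyl cyclase, fell by 1.33 and 1.26, with the calls of both lost without WT 1, WT 3, WT 4 or KO 2. The number of lower genes was 1 without WT 1, WT 3 or WT 4, 2 without KO 2 and 3 without KO 3, and that of higher genes 0 without WT 1, WT 3, WT 4 or KO 3 and 2 without KO 1 or KO 4.

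Many genes of the machinery that builds mitochondria were also lower. Beside the list counts of this paragraph, 16% of all genes fell and 14.2% rose. Of 77 mitochondrial ribosomal proteins, 65 fell and none rose, with a median of -1.05, and 35 calls were kept. Mrpl34, of the large subunit, held 138, 114, 127 and 142 CPM in WT 1 to 4 and 18.7, 28.1, 51.4 and 69.6 CPM in KO 1 to 4, a difference of -1.81 (adjusted p = 0.0102). Of 18 genes of mitochondrial DNA and biogenesis, 10 fell and 1 rose, with 3 of the lower calls kept, and the number called lower was 3 without WT 3 or WT 4, 4 without KO 2, 5 without WT 1 and 6 without KO 3. Tufm, the mitochondrial elongation factor, held 178, 174, 192 and 193 CPM in WT 1 to 4 and 28.4, 41.3, 69.5 and 107 CPM in KO 1 to 4 and fell by 1.76, and Timm50, of the inner-membrane import channel, held 251, 218, 208 and 241 CPM in WT 1 to 4 and 45.9, 57.2, 90.7 and 106 CPM in KO 1 to 4 and fell by 1.69. Tfam, which packages mitochondrial DNA, fell by 0.99, its call lost without WT 1, WT 3, WT 4, KO 2 or KO 3, and Nrf1 rose by 0.47, its call lost without WT 1, WT 2, WT 3, WT 4, KO 1, KO 2 or KO 3. Import genes were lower in 14 of 25 and those of mitophagy and dynamics in 9 of 19, where no call was kept. Without KO 4, 23 import genes were called, and without WT 4, 5. The number of mitophagy and dynamics genes called was 0 without WT 1, 1 without WT 3, WT 4 or KO 2, 3 without WT 2 and 4 without KO 3. The number of ribosomal genes called was 36 without WT 1, 37 without WT 4 and 43 without WT 3.

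Cytosolic ribosomal proteins were higher in KO. Of 73 measured, 36 rose and none fell, against 14.2% of all genes rising, with a median of 0.59. Rpl10 held 94.8, 102, 82.2 and 87.5 CPM in WT 1 to 4 and 213, 211, 216 and 133 CPM in KO 1 to 4, and Rps6, of the small subunit, held 18.4, 21.3, 18.6 and 17.7 CPM in WT 1 to 4 and 33.0, 42.5, 40.9 and 30.7 CPM in KO 1 to 4. The differences were 1.06 (adjusted p = 0.00625) and 0.94 (adjusted p = 0.00432), and 9 of the list's calls were kept. These genes have many pseudogene copies, and how shared reads were counted is not given, so their levels are uncertain. The number called was 9 without WT 4, 11 without WT 3, 13 without KO 3, 18 without KO 2 and 23 without WT 2. Proteasome subunits rose in 7 of 32, against the same 14.2%, with a median of 0.18 (0.27 without KO 1), among them Psma5 by 0.92 and Psmc1 by 0.68, and the number called was 3 without WT 1, WT 2, WT 4, KO 2 or KO 3 and 4 without WT 3.

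**Figure D3:**
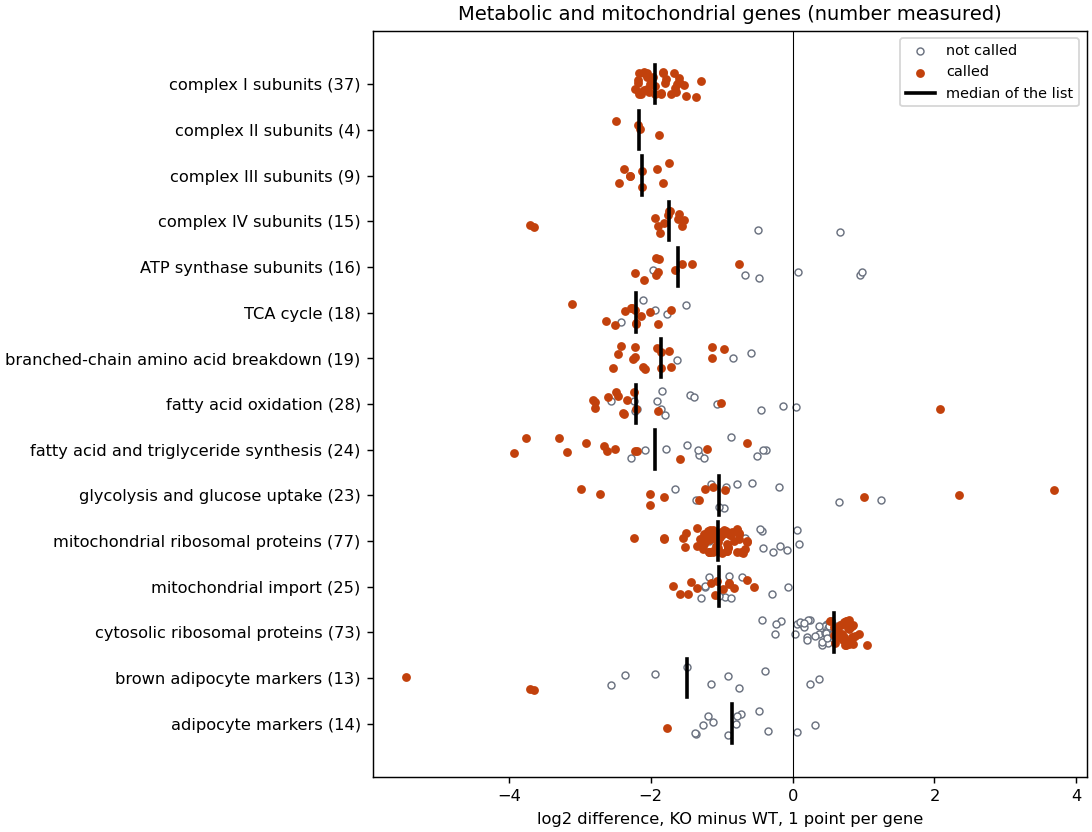
Difference between KO and WT (log2) for each measured gene of 15 metabolic, mitochondrial and adipocyte lists, with called genes filled and a bar at the list's median. The median is -1.93 for complex I, -1.05 for mitochondrial ribosomal proteins and 0.59 for cytosolic ribosomal proteins, and Cpt1a stands alone on the right of the fatty acid oxidation row.

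Stress-response genes were higher in KO. The integrated stress response halts most translation and induces transcription factors such as ATF4 when mitochondria, amino acid supply or protein folding fail. Of 30 of its genes, 15 rose and 1 fell (median 0.87), against 14.2% and 16% of all genes, and 11 of the higher calls were kept. Gdf15 (ENSMUSG00000038508, chromosome 8), a stress hormone that lowers food intake, held 1.55, 2.57, 1.28 and 1.23 CPM in WT 1 to 4 and 52.7, 222, 40.3 and 104 CPM in KO 1 to 4. All KO levels were far above all WT levels, KO 2 most of all, and the difference was 5.73 on the log2 scale (SE 0.52, adjusted p = 7.80e-04). Atf3, a factor induced by ATF4, held 3.90, 5.99, 2.52 and 4.17 CPM in WT 1 to 4 and 259, 352, 76.8 and 66.6 CPM in KO 1 to 4, a difference of 5.21 on the log2 scale (SE 0.56, adjusted p = 0.00142).

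The largest difference of the list was that of Slc7a11 (ENSMUSG00000027737, chromosome 3), the cystine importer used for glutathione synthesis. It had 2, 5, 1 and 0 reads in WT 1 to 4 and 494, 1613, 202 and 398 in KO 1 to 4, or 23.5, 99.7, 10.6 and 19.98 CPM in KO. The fitted difference of 7.57 (adjusted p = 0.00199) rests on 8 WT reads in all. Mthfd2, of mitochondrial one-carbon metabolism, held 8.14, 11.1, 8.18 and 8.93 CPM in WT 1 to 4 and 27.4, 25.1, 15.9 and 45.9 CPM in KO 1 to 4 and rose by 1.56. Fgf21, a secreted target of ATF4, held 0.329, 0.530, 0.448 and 0.945 CPM in WT 1 to 4 and 0.119, 9.36, 3.84 and 14.5 CPM in KO 1 to 4. It was under the floor in KO 1 and above every WT library in KO 2 to KO 4, and was not called (2.43, adjusted p = 0.199). Psph, of serine synthesis, fell by 1.78, and Asns and Ddit3 were not called, at -1.23 (adjusted p = 0.0582) and 0.34 (adjusted p = 0.0856). Without KO 4, 3 genes of the list were called lower.

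Promoters of the list are shown because several hold the C/EBP-ATF element, the sequence that ATF4 dimers bind. The letters TGATGNAAN were searched on both strands in RefSeq windows from 250 bases before to 50 after each gene's start (GRCm38.p6), which were found for 11243 of the genes with a value and 26 of the list, some with several starts. A window with several matches was counted once. The letters were in 10 of 30 windows of the list (33.3%) and in 2.33% of the 14360 windows of all genes. A match is no evidence of binding in these samples. The share follows from which genes were listed and not from the levels in these libraries. The stretches below carry a match in capitals and run along the gene's strand, at chr3:50443651-50443699 (minus strand) for Slc7a11, chr1:191183416-191183464 (minus strand) for Atf3, chr2:119351028-119351076 (plus strand) for Chac1 and chr7:45615602-45615650 (minus strand) for Fgf21.
Slc7a11: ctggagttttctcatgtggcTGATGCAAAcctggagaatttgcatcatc
Atf3: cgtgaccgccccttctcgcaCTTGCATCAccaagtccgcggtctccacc
Chac1: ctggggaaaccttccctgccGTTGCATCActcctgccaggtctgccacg
Fgf21: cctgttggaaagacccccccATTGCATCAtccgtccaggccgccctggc
The match in Slc7a11 starts 66 bases before the start of the gene, and a further match on the other strand starts 48 bases before it. Asns also holds a match, 23 bases before its start, and did not pass the test.

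Of 22 antioxidant genes listed as NRF2 targets, 10 rose and 2 fell, against 14.2% and 16% of all genes, with a median of 0.88. Among the 10 not called were Gclm (0.46), Txnrd1 (0.77), G6pdx (-0.35), Pgd (-0.55), Me1 (-0.87) and Gstm1 (-0.26). Hmox1, heme oxygenase 1, held 34.9, 46.7, 28.3 and 23.3 CPM in WT 1 to 4 and 411, 1148, 444 and 461 CPM in KO 1 to 4, a difference of 4.11 on the log2 scale (SE 0.36, adjusted p = 7.80e-04), with KO 2 at more than 2 times any other library. Ftl1, the ferritin light chain, held 42.8, 56.3, 41.4 and 39.7 CPM in WT 1 to 4 and 344, 358, 268 and 177 CPM in KO 1 to 4 and rose by 2.63. Nqo1, a quinone reductase, held 5.31, 4.85, 3.62 and 3.47 CPM in WT 1 to 4 and 6.68, 48.8, 21.4 and 48.8 CPM in KO 1 to 4, where KO 1 was close to WT and the call was lost without WT 4. The genes that fell, Tkt and Taldo1, belong to the pentose phosphate pathway that makes NADPH, and Tkt held 4244, 2474, 3342 and 5609 CPM in WT 1 to 4 and 339, 452, 567 and 939 CPM in KO 1 to 4 (-2.81, adjusted p = 0.00362). Taldo1 fell with its call lost without WT 1, WT 3, WT 4 or KO 2. The antioxidant element, searched as TGACNNNGC on both strands in the same kind of window, was in 10 of 26 windows of the list (38.5%) and in 14.3% of all. Gclm, which was not called, holds a match 134 bases before its start. Here too the share follows from which genes were listed and not from their levels. The number of higher genes was 6 without WT 1 or WT 4, and that of lower genes 1 without WT 1, WT 3, WT 4 or KO 2. List scores were 0.39, 1.63, 0.86 and 1.34 in KO 1 to KO 4, lowest in KO 1, the library with the lowest respiratory score.

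Endoplasmic reticulum chaperones rose in 7 of 20 genes and fell in 1, against 14.2% and 16% of all genes. Xbp1, a factor of the unfolded protein response, held 92.0, 94.5, 82.8 and 90.1 CPM in WT 1 to 4 and 249.6, 178, 239 and 114 CPM in KO 1 to 4 and rose by 1.06, the only higher call of the list that was kept. Hspa5, the main chaperone BiP, held 405, 450.4, 454 and 495 CPM in WT 1 to 4 and 1563, 1576, 828 and 669 CPM in KO 1 to 4, a difference of 1.27 (adjusted p = 0.0228) whose call was lost without WT 1, WT 2, WT 3, WT 4 or KO 2. Herpud1, of the degradation path, fell by 0.83 from 125, 95.6, 125 and 132 to 67.2, 66.3, 60.1 and 73.3 CPM. The number of higher genes was 1 without WT 1, WT 3, WT 4 or KO 2, 2 without WT 2 or KO 3 and 14 without KO 4.

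Interferon-induced genes rose almost without exception. These genes encode antiviral effectors and sensors that type I and type II interferons switch on through factors such as those of the IRF family. Of 32 measured genes, 31 rose, none fell, and in 31 every KO level was above every WT level, against 14.2% and 17.2% of all genes. The list was chosen with earlier results of these data known, so this contrast is a description. The median was 2.78, and 26 calls were kept. Without KO 1, 30 were called, with a median of 2.32. In 27 the genotype difference was larger than under saline, by a test that the same isoproterenol libraries enter.

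Irf7, the factor that amplifies the type I response, held 18.3, 21.2, 18.5 and 10.1 CPM in WT 1 to 4 and 684, 306, 286 and 365 CPM in KO 1 to 4, a difference of 4.55 on the log2 scale (SE 0.33, adjusted p = 5.94e-04). Isg15, a ubiquitin-like modifier, held 7.01, 8.27, 7.003 and 4.24 CPM in WT 1 to 4 and 194, 75.2, 50.3 and 54.2 CPM in KO 1 to 4, and Oas3, a sensor of double-stranded RNA, held 0.705, 1.43, 1.0004 and 0.525 CPM in WT 1 to 4 and 192, 37.8, 45.1 and 20.7 CPM in KO 1 to 4. Their differences were 3.62 (adjusted p = 0.00194) and 5.90 (adjusted p = 0.00144), with no overlap between genotypes. Zbp1, a sensor of nucleic acids that can start necroptosis, held 3.72, 2.89, 2.59 and 1.23 CPM in WT 1 to 4 and 189, 61.2, 46.7 and 28.8 CPM in KO 1 to 4 and rose by 4.70. Members of these families with near copies, such as the Oas, Ifit and H2 genes, are uncertain where the authors' counting could split reads between copies.

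The interferon-stimulated response element, bound by complexes that hold IRF factors, was searched for as GAAA, any 2 bases and GAAA again, on both strands in the same windows. It was in 15 of 27 windows of the list (55.6%) and in 3.25% of all 14360. The letters of this element and of the C/EBP-ATF element are not contained in each other. Stretches of 4 promoters are shown with a match in capitals, at chr4:156200867-156200916 (minus strand) for Isg15, chr5:120777705-120777754 (minus strand) for Oas3, chr5:92349073-92349122 (minus strand) for Cxcl10 and chr19:34640765-34640814 (plus strand) for Ifit1.
Isg15: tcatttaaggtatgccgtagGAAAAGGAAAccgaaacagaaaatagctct
Oas3: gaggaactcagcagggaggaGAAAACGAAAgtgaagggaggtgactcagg
Cxcl10: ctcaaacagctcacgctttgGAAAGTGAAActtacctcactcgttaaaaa
Ifit1: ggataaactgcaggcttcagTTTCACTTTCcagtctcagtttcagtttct
The matches start 78, 75, 213 and 104 bases before the start of Isg15, Oas3, Cxcl10 and Ifit1, and these genes rose by 3.62, 5.90, 5.72 and 3.37 on the log2 scale. As with the element above, a match describes the letters of the window. The list was made of interferon-induced genes, so its share of matches follows from that choice and not from the levels in these libraries.

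Of 26 chemokines and cytokines, 20 rose and none fell (median 3.52), against 14.2% and 16% of all genes, and 17 calls were kept. Without KO 1, 1 gene was called lower. Ccl2, which recruits monocytes, held 3.81, 6.81, 2.10 and 3.12 CPM in WT 1 to 4 and 645, 151, 119.9 and 32.3 CPM in KO 1 to 4, a difference of 5.27 on the log2 scale (SE 0.80, adjusted p = 0.00390). Cxcl10, an interferon-induced attractant of T cells, held 1.27, 1.83, 2.38 and 1.996 CPM in WT 1 to 4 and 128, 381, 15.4 and 114 CPM in KO 1 to 4, with KO 3 the lowest of the KO libraries at more than 5 times any WT level. Cxcl1, which attracts neutrophils, rose by 4.36, and Tnf, with 5, 9, 1 and 4 reads in WT and 669, 60, 72 and 36 in KO, by 3.99. Il1b was not called (1.61, adjusted p = 0.180): KO 4 lay among the WT libraries, and KO 1 held 45.9 CPM.

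Genes of inflammasomes and regulated cell death rose in 16 of 26 and fell in none, against 14.2% and 16% of all genes. Their median was 1.49, and 7 calls were kept. Ripk3, the kinase of necroptosis, held 10.9, 10.9, 8.31 and 7.95 CPM in WT 1 to 4 and 51.7, 26.7, 24.3 and 14.9 CPM in KO 1 to 4. Mlkl, which carries out this form of death, held 11.1, 10.7, 7.69 and 8.72 CPM in WT 1 to 4 and 54.6, 31.1, 25.1 and 22.8 CPM in KO 1 to 4. They rose by 1.5 and 1.73, and Casp4, the mouse caspase-11 gene, by 3.23. Bcl2l11, the pro-apoptotic BIM, held 8.61, 7.70, 8.38 and 4.73 CPM in WT 1 to 4 and 96.6, 30.3, 45.0 and 13.9 CPM in KO 1 to 4, a difference of 2.36 (adjusted p = 0.0130). Nlrp3, of the inflammasome, was called at 2.34 (adjusted p = 0.0384) with overlapping levels, and the call was lost without WT 1, WT 2, WT 3, WT 4, KO 2 or KO 3. The number of higher genes was 7 without WT 3, WT 4 or KO 3, 9 without KO 2 and 10 without WT 1, and 1 gene was called lower without KO 1.

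Markers of myeloid cells were higher in KO. Macrophage markers rose in 10 of 16 (median 1.74), against 14.2% of all genes. Their summed level was 673 to 1187 CPM in WT and 1213 to 8866 CPM in KO, with none at 0. Cd68, a lysosomal glycoprotein of macrophages, held 48.3, 65.0, 32.6 and 29.5 CPM in WT 1 to 4 and 1038, 384, 730.4 and 192 CPM in KO 1 to 4, and Fcgr1, a high-affinity receptor for IgG, held 4.37, 6.97, 5.07 and 3.61 CPM in WT 1 to 4 and 416, 99.1, 188 and 33.1 CPM in KO 1 to 4. The groups did not overlap, and the differences were 3.54 on the log2 scale (SE 0.51, adjusted p = 0.00337) and 4.70 (adjusted p = 0.00334). Lyz2 was not called (2.15, adjusted p = 0.0526), with KO 4 at 327 CPM inside the WT levels of 305, 443, 260.3 and 209.6 CPM. The number called was 6 without WT 1, WT 3 or WT 4.

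Markers of lipid-associated macrophages, which take up the lipid of dying adipocytes, rose in 11 of 12, with a median of 3.08. Beside this count and those of the monocyte and neutrophil markers below, 14.2% of all genes rose. Gpnmb, a membrane glycoprotein of these cells, held 24.5, 41.0, 14.5 and 11.2 CPM in WT 1 to 4 and 3576, 522, 1244 and 253 CPM in KO 1 to 4. Trem2, a lipid receptor, held 8.42, 13.2, 4.45 and 2.91 CPM in WT 1 to 4 and 227, 60.6, 188 and 35.1 CPM in KO 1 to 4. Spp1, osteopontin, held 9.08, 24.3, 1.48 and 2.91 CPM in WT 1 to 4 and 4399.5, 1373, 1376 and 61.3 CPM in KO 1 to 4. The differences were 5.45 on the log2 scale (SE 0.78, adjusted p = 0.00333), 3.99 (adjusted p = 0.00543) and 7.25 (adjusted p = 0.00692), and KO 4 was the lowest KO library in each. Monocyte markers rose in 8 of 9 (median 4.73), among them Ly6c2 at 1.36, 0.530, 0.655 and 0.945 CPM in WT 1 to 4 and 207, 20.4, 33.3 and 12.9 CPM in KO 1 to 4. Neutrophil markers rose in 7 of 11, with 1 of them at 0 reads in a library, and S100a8 held 4.84, 2.81, 5.48 and 5.08 CPM in WT 1 to 4 and 65.2, 69.4, 45.1 and 16.2 CPM in KO 1 to 4, a difference of 3.27 (adjusted p = 0.00323). The numbers called were 7 without WT 1, WT 3, WT 4 or KO 3 for the first of these lists and 5 without WT 1, WT 2, WT 3 or WT 4 for the monocyte list.

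Not every myeloid or immune marker rose. C1qa, a complement gene of resident macrophages, was not called (0.81, adjusted p = 0.137), and Fcrls, a scavenger receptor-like gene of resident macrophages, held 17.2, 17.6, 15.3 and 16.1 CPM in WT 1 to 4 and 0.737, 0.278, 0.862 and 0.226 CPM in KO 1 to 4 and fell by 5.21, from 182, 216, 221 and 230 reads in WT to 15, 4, 16 and 4 in KO. Of 10 T and NK cell markers, 1 rose, where 14.2% of all genes did. It was Il7r, the interleukin 7 receptor, which some macrophages also express, with 0.423, 1.67, 0.724 and 0.735 CPM in WT 1 to 4 and 232, 36.0, 59.5 and 14.0 CPM in KO 1 to 4. No B cell marker of 9 was called, nor any of 12 endothelial markers, whose summed level was 1859.9 to 2724 CPM in WT and 2068 to 2346 CPM in KO. Without KO 1, 1 endothelial marker was called higher and 1 lower, and without KO 4, 2 T and NK cell markers were called higher. Pecam1 of the endothelial list held 514, 495, 351 and 346 CPM in WT 1 to 4 and 451, 520.2, 472 and 499 CPM in KO 1 to 4 (0.21, adjusted p = 0.490). The part of a changed cell make-up in the immune lists was not tested.

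Genes of lysosomes and phagocyte digestion rose in 16 of 25 and fell in none. Beside this count and those of antigen presentation and complement below, 14.2% of all genes rose and 16% fell. Ctss, a cathepsin of antigen-presenting cells, held 54.6, 86.5, 49.7 and 31.9 CPM in WT 1 to 4 and 2285, 512, 1217 and 275 CPM in KO 1 to 4, and Ctsl, a broadly expressed cathepsin, held 172, 199, 201 and 182 CPM in WT 1 to 4 and 1664, 1173, 2006 and 733 CPM in KO 1 to 4. The differences were 3.92 (adjusted p = 0.00440) and 2.79 on the log2 scale (SE 0.32, adjusted p = 0.00176), and Atp6v0d2, a proton pump subunit of osteoclasts and macrophages, rose by 3.97. Antigen presentation genes rose in 9 of 19. These were of class I: B2m held 624, 675, 534 and 392 CPM in WT 1 to 4 and 3079.9, 1255, 2546 and 1816 CPM in KO 1 to 4 and rose by 1.92, and H2-K1 rose by 1.36 (call lost without WT 3 or WT 4), while the class II genes Cd74 and H2-Aa were not called, at 0.50 (adjusted p = 0.516) and 0.62 (adjusted p = 0.396). Complement genes rose in 10 of 16, with the receptors C3ar1 and C5ar1 higher by 3.91 and 3.18 and C3 itself not called (-0.74, adjusted p = 0.236). The lysosomal count was 10 without WT 1, that of antigen presentation 5 without WT 3 or WT 4, and that of complement 4 without WT 3 or WT 4 and 6 without WT 1.

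**Figure D4:**
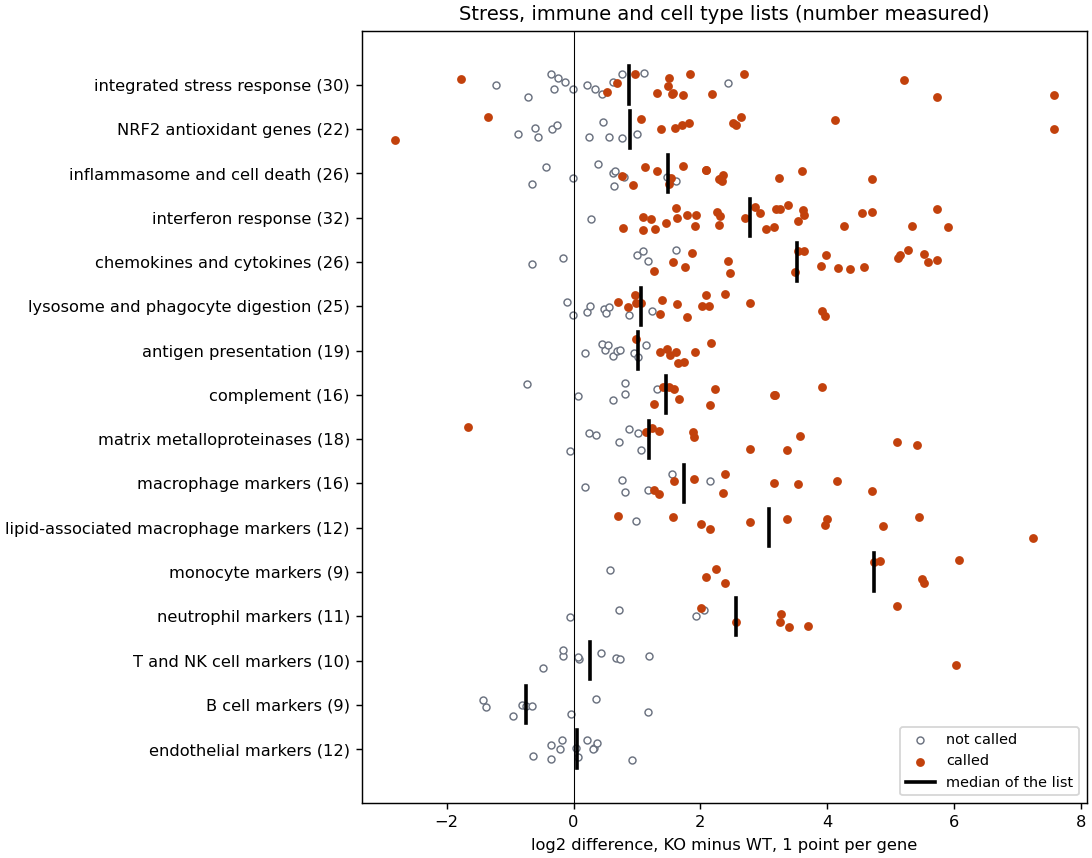
Difference between KO and WT (log2) for each measured gene of 16 stress, immune and cell type lists, with called genes filled and a bar at the list's median. Medians are 2.78 for the interferon response, 3.52 for chemokines and cytokines and 4.73 for monocyte markers, while no B cell or endothelial marker is called.

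Of 30 secreted factors of fat, 6 rose and 5 fell, close to the 14.2% and 16% of all genes. Beside Gdf15, the higher ones included Il6, which had 1, 0, 0 and 0 reads in WT and 67, 69, 16 and 18 in KO. Metrnl, meteorin-like, held 17.1, 16.8, 13.3 and 11.4 CPM in WT 1 to 4 and 197, 52.0, 111 and 24.7 CPM in KO 1 to 4 and rose by 2.34, a call lost without WT 3 or WT 4. Among those that fell, Apln, apelin, held 22.9, 8.76, 15.8 and 22.9 CPM in WT 1 to 4 and 4.73, 1.14, 1.91 and 0.476 CPM in KO 1 to 4, a difference of -3.46 on the log2 scale (SE 0.66, adjusted p = 0.00775), and Ptgds, prostaglandin D2 synthase, fell from 46.0, 25.5, 36.3 and 35.7 to 0.0714, 0.710, 1.12 and 2.68 CPM. Adipoq, adiponectin, held 1088, 1173, 1076 and 1024 CPM in WT 1 to 4 and 229, 201, 1076 and 631 CPM in KO 1 to 4, with KO 3 inside the WT levels, and was not called (-1.37, adjusted p = 0.0765). Lep, leptin, Nrg4 and Bmp8b were not called either, at 1.55, -1.23 and -0.66.

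Of 26 extracellular matrix genes, 4 rose, all kept, a share close to the 14.2% of all genes. Thbs1, thrombospondin 1, held 18.1, 35.7, 9.90 and 13.2 CPM in WT 1 to 4 and 1108, 389, 324 and 114 CPM in KO 1 to 4, a difference of 4.38 on the log2 scale (SE 0.66, adjusted p = 0.00389), and Lox, which crosslinks collagen, held 38.9, 49.1, 42.9 and 43.2 CPM in WT 1 to 4 and 95.2, 86.3, 95.7 and 84.9 CPM in KO 1 to 4 and rose by 1.06. Col1a1 and Fn1 were not called, at -0.25 (adjusted p = 0.789) and -0.013 (adjusted p = 0.990). Of 18 metalloproteinases and related genes, 10 rose, among them Adam8 at 8.98, 16.99, 6.04 and 4.73 CPM in WT 1 to 4 and 634, 228, 718 and 141 CPM in KO 1 to 4, and Mmp15 fell by 1.66. Fibroblast and preadipocyte markers rose in 3 of 12, beside the same 14.2%, with a summed level of 756 to 1047 CPM in WT and 1318 to 2487 CPM in KO. Without KO 4 the count of matrix genes was 8, and the count of metalloproteinases was 5 without WT 3 or WT 4 and 6 without WT 1.

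Of 15 iron genes, 5 rose and 6 fell, against 14.2% and 16% of all genes, and 4 of the higher and 2 of the lower calls were kept. The number of lower genes was 2 without WT 1, WT 3, WT 4 or KO 3 and 3 without WT 2 or KO 2. Tfr2, the second transferrin receptor, held 55.7, 50.7, 30.5 and 59.1 CPM in WT 1 to 4 and 1.21, 0.649, 2.85 and 1.33 CPM in KO 1 to 4, a difference of -5.18 on the log2 scale (SE 0.43, adjusted p = 7.80e-04). Saline levels were 1.85 ± 0.754 CPM in WT saline and 3.21 ± 1.44 CPM in KO saline (SD, n = 4), below the WT isoproterenol levels. Slc40a1, the iron exporter ferroportin, fell by 1.89 from 72.4, 57.5, 140.0 and 100.1 to 24.7, 21.2, 16.3 and 36.4 CPM, and Lcn2, which binds siderophores and is also a neutrophil marker, rose by 3.40. Red blood cell genes fell in 5 of 5 (3 without WT 1 or WT 4), with a summed level of 169 to 410.3 CPM in WT and 83.9 to 150.3 CPM in KO, and Hbb-bs held 219, 128, 102 and 182 CPM in WT 1 to 4 and 89.4, 51.7, 49.7 and 67.1 CPM in KO 1 to 4 (-1.27, adjusted p = 0.0134). Blood content of the samples is not given in the labels, and its part in the iron genes was not tested. The globin genes have near-identical copies and are uncertain one by one.

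Of 18 genes of hypoxia and angiogenesis, 3 rose and 2 fell, beside 14.2% and 16% of all genes, and 1 lower call alone was kept. Angiogenic factors included Vegfb, which held 139, 110.2, 114 and 118 CPM in WT 1 to 4 and 15.9, 22.8, 44.4 and 56.5 CPM in KO 1 to 4 and fell by 1.96, whereas Vegfa was not called (-1.46, adjusted p = 0.0826). Of 10 smooth muscle and pericyte markers, 2 fell, near the 16% of all genes, and none rose, although 3 were called higher with library totals. Cspg4, a pericyte marker, fell by 1.6, and Rgs5, another, by 0.91, a call lost without WT 1, WT 2, WT 3, WT 4, KO 2 or KO 3 and with library totals. S100b, a calcium-binding protein made by Schwann cells and also by brown adipocytes, where it promotes nerve ingrowth, held 271, 240.5, 303 and 288 CPM in WT 1 to 4 and 11.4, 13.9, 15.4 and 38.1 CPM in KO 1 to 4. The difference was -3.97 on the log2 scale (SE 0.34, adjusted p = 7.80e-04), with no overlap. Mbp, a myelin gene of Schwann cells, was not called (0.29, adjusted p = 0.316). Of 7 Schwann cell and nerve markers measured, 2 rose and S100b alone fell, against 14.2% and 16% of all genes. Of the higher calls 1 was kept.

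Cell cycle genes depended on KO 1 and KO 4. Mki67, a marker of cycling cells, held 39.6, 45.5, 34.4 and 25.1 CPM in WT 1 to 4 and 88.4, 8.49, 17.8 and 5.64 CPM in KO 1 to 4: KO 1 was the highest of all 8 libraries and the other 3 KO libraries were the lowest. With all libraries, 1 of 32 genes rose (Pcna, whose call was lost without WT 1, WT 2, WT 3, WT 4, KO 1, KO 2 or KO 3), none fell and the median was -0.64. These were smaller shares than the 14.2% and 16% of all genes. Without KO 1, none rose and 21 fell, with a median of -1.28, where 2613 of all 15350 genes fell. Without KO 4, 4 rose and none fell. List scores were 1.09, -0.91, -0.33 and -1.51 in KO 1 to KO 4 and -0.31 to 0.30 in WT, and KO 1 also had the highest macrophage, monocyte and interferon scores.

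Skeletal muscle transcripts varied between libraries of both genotypes. Myh4, the fast myosin, held 54.6, 0.367, 322 and 719 CPM in WT 1 to 4 and 0.880, 170.1, 109 and 21.7 CPM in KO 1 to 4, and list scores were -4.29, 0.96, 0.76 and -2.15 in KO 1 to KO 4 against -4.39 to 3.21 in WT. Summed levels were 163 to 3288 CPM in WT and 48.6 to 859 CPM in KO. Only Myl1 of 14 markers was called, at -2.65 (adjusted p = 0.0115). Muscle also expresses Pfkm, Ckb, Slc2a4 and Fndc5, which fell in KO. The part of muscle RNA in those genes was not tested.

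**Figure D5:**
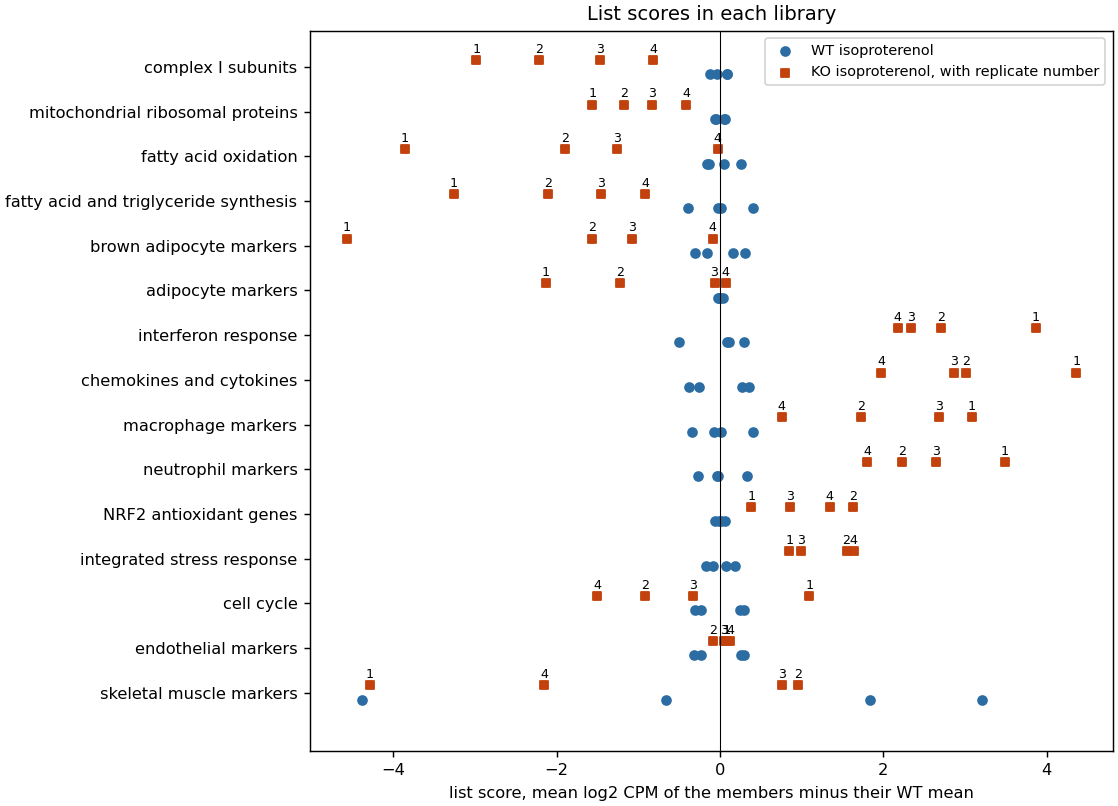
Scores of 15 lists in each library, as the mean log2 CPM of the members minus their WT mean, with WT as circles and KO as numbered squares. KO 1 has the lowest complex I score at -2.98 and the highest interferon score at 3.86, complex I is below WT in all 4 KO libraries, and adipocyte markers are far below WT in KO 1 and KO 2 only.

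The genes with the largest differences over the whole table were named by a rule (12 in each direction, no overlap, a mean of at least 5 CPM in the higher group). Beside those described, Slfn4, a Schlafen gene of myeloid cells, held 1.74, 1.59, 4.24 and 1.37 CPM in WT 1 to 4 and 989, 221, 128 and 47.3 CPM in KO 1 to 4, and Ms4a4c, a membrane protein of monocytes, held 0.894, 1.18, 0.724 and 0.875 CPM in WT 1 to 4 and 229, 49.5, 70.8 and 17.6 CPM in KO 1 to 4. Rgs1, a regulator of G protein signalling in leukocytes, had 3, 10, 7 and 1 reads in WT and 2150, 313, 1188 and 182 in KO. Rhov, Sprr1a and Acod1 were all but unread in WT. Rhov had 0, 2, 0 and 0 reads in WT 1 to 4 and 533, 45, 149 and 21 in KO 1 to 4. Sprr1a had 0, 1, 0 and 0 and 36, 229, 36 and 48, and Acod1 1, 1, 0 and 0 and 1583, 36, 20 and 24, and no fold is given for them. Acod1 makes itaconate in activated macrophages, and Sprr1a is a cornified envelope protein that is also induced by tissue stress. Tm4sf19 had 2, 2, 1 and 1 reads in WT and 475, 105, 232 and 45 in KO.

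Of the genes that fell most, Car14, a membrane-bound carbonic anhydrase, held 59.1, 45.8, 57.5 and 104 CPM in WT 1 to 4 and 0.167, 0.772, 0.496 and 0.426 CPM in KO 1 to 4. It had 3, 12, 9 and 8 reads in KO 1 to 4, and the difference was -7.29 on the log2 scale (SE 0.47, adjusted p = 4.64e-04), the largest of the genes that fell. Pon1, paraoxonase 1, held 209, 242, 122 and 138 CPM in WT 1 to 4 and 3.64, 3.86, 3.06 and 6.59 CPM in KO 1 to 4, and Aspg, an asparaginase, held 439.5, 348, 403 and 491 CPM in WT 1 to 4 and 2.26, 12.2, 18.2 and 58.3 CPM in KO 1 to 4. Saline levels of Pon1 were 36.4 ± 11.8 CPM in WT saline and 38.3 ± 19.0 CPM in KO saline (SD, n = 4), below every WT and above every KO level under isoproterenol. Fndc5, the precursor of irisin, held 43.3, 14.96, 37.4 and 43.4 CPM in WT 1 to 4 and 0.452, 1.20, 3.63 and 3.08 CPM in KO 1 to 4, and Slc2a5, the fructose transporter GLUT5, held 15.2, 3.22, 6.52 and 19.1 CPM in WT 1 to 4 and 0.262, 0.402, 0.705 and 0.175 CPM in KO 1 to 4. The differences were -5.38 (adjusted p = 3.36e-04), -5.0 (adjusted p = 0.00475), -4.35 (adjusted p = 0.00406) and -4.71 (adjusted p = 0.00297).

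The remaining genes of the rule were Sec14l4, a lipid-binding protein (-4.51), Slc22a2, an organic cation transporter (-4.38), and Plet1os (-4.69), which overlaps Plet1 on the other strand, so that reads of the pair cannot be told apart where strand was not used. In 23 of the 25 genes named by this rule or as Ucp1 and Gdf10, the genotype difference also differed between isoproterenol and saline. The exceptions were Ucp1 and Gdf10, at -3.43 (adjusted p = 0.0826) and -1.26 (adjusted p = 0.111). The genes of the rule were chosen for a large isoproterenol difference in libraries that also enter this test, so the count of 23 is no separate support. For Car14 the difference of differences was -7.37 (adjusted p = 9.01e-06), and saline levels were 26.1 ± 9.42 CPM in WT saline and 27.6 ± 8.32 CPM in KO saline (SD, n = 4).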

How the data were processed

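Total RNA of interscapular brown fat was made into stranded mRNA libraries and read as single 75 bp reads, per the labels' protocols. The deposited values are log2 CPM per Ensembl gene, computed by the authors with limma after STAR, per the submitters' processing notes, which name mm39. They had the form log2((reads + 0.5) / scaled library size × 1e6), and whole reads were recovered for 100% of values within 1e-06. Counting, strand use and library scaling are otherwise not given in the sources used here. Symbols and chromosomes were matched by Ensembl ID to a GENCODE annotation of GRCm38 (15320 of 15350 IDs), and promoters to RefSeq by symbol.

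The 8 isoproterenol libraries were fitted alone on the deposited log2 values (limma 3.58.1 in R 4.3.3, trended and robust empirical Bayes, 6 residual degrees of freedom, statmod 1.5.0), with Benjamini-Hochberg adjustment over 15350 genes. Saline libraries had their own fit, and the difference of differences came from all 16. Since the values are log2 CPM, no count model was the main test. CPM printed here are 2 to the deposited value, so that 0 reads give a small positive level, and reads are the recovered ones. Named were Ucp1 and Gdf10, the 12 largest called differences per direction among genes with gene names (not clone names), without overlap and with a mean of at least 5 CPM in the higher group, and in each list up to 4 called members in the main direction, up to 2 in the other, its preset key members and, for markers, up to 4 by level. Some named genes are not reported here. Members and lists were chosen with earlier results of these data known. Alternatives were all 16 libraries, a replicate block, a filter at mean CPM of 1, log2(CPM + 1), library totals, median-of-ratios scaling, voom weights on recovered reads, sample weights, no robust step, and each library left out. Replicate numbers did not pair libraries across genotypes. Fits were tested on simulated data. Permutation tests were exact and two-sided (Python 3.11.15, numpy 2.4.6, pandas 2.3.3, scipy 1.17.1, matplotlib 3.10.9).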

Additional observations from a re-analysis of the deposited data

Results flagged for a closer look

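In 9 of 378 groups of 4 isoproterenol libraries 1 library lay far outside the range of the other 3, and chance alone flags about 1 in 20 such groups. In KO 2 these were Sprr1a at 14.2 CPM, Hmox1 at 1148 CPM and Adm, adrenomedullin, at 27.1 CPM, all high. In WT they were Fndc5 in WT 2 at 14.96 CPM and Polrmt, the mitochondrial RNA polymerase, in WT 2 at 74.9 CPM, Il6 in WT 1 at 0.141 CPM, Gatm in WT 3 at 3.48 CPM, Cd74 in WT 4 at 84.3 CPM, and the score of the fatty acid uptake list in WT 1 at -0.079. The Il6 level was that of 1 read, under the floor of 0.282 CPM in WT 1. None was in KO 1 or KO 4.

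The genotype difference under isoproterenol differed from that under saline in 23 named genes, by limma's test of the difference of differences on the log2 scale over all 16 libraries (adjusted p from 9.01e-06 to 0.0459). These genes were named for large differences between the isoproterenol libraries, which also enter this test. Positive values were those of Slc7a11 (8.44), Rhov (6.49), Slfn4 (6.41), Sprr1a (6.07), Rgs1 (5.76), Spp1 (5.39), Ms4a4c (5.35), Il7r (5.21), Gdf15 (5.10), Acod1 (4.93), Tm4sf19 (4.80) and Oas3 (3.98). Negative values were those of Car14 (-7.37), Slc2a5 (-7.18), Ptgds (-6.17), Tfr2 (-5.96), Pon1 (-5.36), Fcrls (-5.35), Aspg (-4.48), Plet1os (-4.40), Sec14l4 (-4.38), Slc22a2 (-4.38) and Fndc5 (-3.79). For Rhov, Sprr1a, Acod1, Tm4sf19 and Slc7a11, with few or no WT reads, the size depends on the prior count.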

How the results depend on the processing

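No called difference of a named gene reversed under any alternative run. The number of called genes was 7718 with sample weights and 2411 to 6070 with 1 library left out. Of these, higher calls were 3311 with all 16 libraries, 3289 with library totals, 3827 with sample weights and 1088 to 2919 with 1 library left out, and lower calls were 3891 with sample weights and 1323 to 3151 with 1 library left out. Under saline the count was 11 with the replicate block, numbered by the titles, 15 with all 16 libraries and 8 to 307 with 1 library left out. Fatty acid oxidation had 22 lower genes with all 16 libraries, 4 with voom weights, 23 with sample weights and 3 to 23 with 1 library left out. Brown fat regulators had 14 with all 16 libraries, 7 with the replicate block, 1 with voom weights, 15 with sample weights and 2 to 14 with 1 library left out. With 1 library left out, lower genes were 4 to 18 for the tricarboxylic acid cycle, 6 to 18 for lipid synthesis and 36 to 71 for mitochondrial ribosomal proteins, and higher genes were 6 to 12 for NRF2, 10 to 18 for lysosomes and 6 to 13 for macrophage markers. Ucp1 was not called with voom weights (-5.41). Gdf10 was called with all 16 libraries (-1.40), the replicate block (-1.40, adjusted p = 0.0380), median-of-ratios scaling (-1.41), sample weights (-1.21) and no robust step (-1.40), and its difference ran from -1.85 to -1.03 with 1 library left out. The cause of these changes was not tested. Replicate numbers did not pair the libraries: correlations of same-numbered deviations were 0.218, -0.246, 0.062 and 0.148. The block gave 4078 called genes. Of 238 called genes named beside Ucp1, 88 lost the call without WT 4, 78 without WT 1 or WT 3 and 4 without KO 1. At these depths 3 reads were worth 0.143 to 0.282 CPM, which limits genes near 0 in a genotype.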

Other observations

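Small marker lists outside the comparisons above are given as values, beside 14.2% of all genes called higher and 16% called lower. Of 8 dendritic cell markers 1 was lower, Itgae, with 4.66, 3.46, 3.001 and 5.36 CPM in WT 1 to 4 and 1.45, 1.27, 1.07 and 0.777 CPM in KO 1 to 4 and a difference of -1.85 (adjusted p = 0.00468). Of 7 mast cell markers 1 was higher and 1 lower, and the higher one, Fcer1a, held 0.0470, 0.367, 0.241 and 0.455 CPM in WT 1 to 4 and 1.55, 1.02, 2.59 and 1.63 CPM in KO 1 to 4 (2.94, adjusted p = 0.0178). The summed level of mast cell markers was 59.1 to 81.2 CPM in WT and 48.2 to 76.7 CPM in KO. Of 8 markers enriched in white adipocytes 1 was higher, with a call lost without WT 1, WT 2, WT 3, WT 4 or KO 3, and the list's summed level was 239 to 381 CPM in WT and 202 to 648 CPM in KO. Of 2 keratinocyte genes measured, Krt10 held 6.35, 5.83, 5.002 and 4.38 CPM in WT 1 to 4 and 1.88, 3.18, 1.85 and 2.68 CPM in KO 1 to 4 (-1.19, adjusted p = 0.0121) and Lor was higher, with its call lost without WT 1.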
